A study of Mus musculus with 24 samples.

Results

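The comparison set the response of the heart to myocardial infarction (MI) in mice with reduced PI3K activity against the same response in nontransgenic mice. It is a difference of 2 differences, (dnPI3K MI minus dnPI3K sham) minus (Ntg MI minus Ntg sham), and it was taken for all 14763 genes measured. It uses 16 of the 24 arrays of the series, in 4 groups of 4: dnPI3K MI, dnPI3K sham, Ntg MI and Ntg sham. All mice were FVB/N, were operated on at 4 months of age and gave their hearts 8 weeks later. The dnPI3K mice carried a transgene restricted to the heart that lowers PI3K activity, and the Ntg mice carried none. The sources used here do not name the promoter of the transgene, the sex of the mice or the size of the infarcts. The sham mice had the control operation, so surgery as such was shared by all 4 groups. The other 8 arrays, of caPI3K mice with raised PI3K activity, entered the fit to help estimate the spread between arrays. They also counted in choosing which genes and probe sets were tested. The series' design text lists this comparison among those the study made.

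PI3K stands between the insulin and IGF1 receptors and the kinase Akt, and in cardiac muscle it is known as a driver of the growth that comes with exercise. After an infarct the surviving muscle is stretched, scar matrix is laid down, and the muscle tends to shift back to a fetal pattern of gene use while its capacity to burn fat declines. Atrial natriuretic peptide, made from *Nppa*, is stored in the atria and is switched on in the ventricle when the wall is under load. Affymetrix arrays of this kind read such shifts as the brightness of a probe set, a group of short probes to 1 transcript. Levels below are log2 of the deposited signal plus a small constant, and effects are differences of log2 levels with their standard error (SE).

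The 4 groups did not stand equally far apart. One Ntg sham array, number 1185, had a higher mean correlation with the Ntg MI arrays (0.957) than with its own group (0.948). Of the other 3, array 1184 had nearly equal values (0.955 with Ntg MI and 0.954 with its own group), and arrays 415 and 416 were closer to their own group (0.952) than to Ntg MI (0.950). This trait was not particular to array 1185. The dnPI3K MI arrays 1117, 87 and 927 had 0.956 to 0.957 with Ntg MI and 0.947 to 0.948 with their own group. Array 1191, of dnPI3K sham, had 0.957 and 0.956. Matrix genes were high on array 1185: the median of 68 matrix genes, each relative to its mean over the 4 groups, was 0.19 on array 1185 and -0.64 to -0.56 on the other 3 Ntg sham arrays. A dnPI3K MI array, number 228, had the lowest mean correlation with its own group (0.922) and a median signal of 151, against 103 to 119 on the other 15 arrays. The difference of MI effects is therefore given with all arrays and without array 1185. Leaving array 1185 out rests on these same expression values, so p-values without it are not independent tests. The labels say that hearts were homogenized one by one but not that each array is a separate animal, and each p-value below rests on how far arrays of 1 group lie apart, which may be technical. In whole hearts, fewer cells of a type and less RNA per cell cannot be told apart.

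With all arrays, no gene passed the test for a different infarct response. limma called 0 of 14763 genes at an adjusted p below 0.05 (0%), and the smallest adjusted p was 0.243, for *Cox16*. At an unadjusted p below 0.05 there were 1122 genes (7.60%), of which 540 had the higher MI effect in dnPI3K hearts and 582 the lower. Without Ntg sham 1185, limma called 1 gene (0.00677%), *Nppa*, and 1005 genes (6.81%) had an unadjusted p below 0.05. The median SE of the difference was 0.266 on the log2 scale, against 0.188 for an MI effect in 1 genotype, so the difference was measured less precisely than either effect.

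The separate MI effects were far from equal in number of calls, but that count is not a test of their difference. In dnPI3K hearts limma called 1390 genes (9.42%), 624 higher (4.23%) and 766 lower (5.19%) after MI. In Ntg hearts it called 115 genes (0.779%), 101 higher (0.684%) and 14 lower (0.0948%). Leaving out array 1185 moved these counts to 1588 (10.8%) in dnPI3K hearts and 671 (4.55%) in Ntg hearts, so the Ntg count moved most and a gap in number was still there. In dnPI3K hearts 734 (4.97%) were then higher and 854 (5.78%) lower, and in Ntg hearts 417 (2.82%) were higher and 254 (1.72%) lower. Between genotypes limma called 165 genes (1.12%) in sham hearts and 381 (2.58%) in infarcted hearts, or 166 (1.12%) and 470 (3.18%) without array 1185. The effects share no arrays. Of the 624 genes that rose in dnPI3K hearts, 575 (92.1%) were also higher after MI in Ntg hearts, beside 62.3% of all genes with the same sign in both genotypes, with a median effect of 0.61 in dnPI3K and 0.29 in Ntg hearts. Without array 1185, the medians over the 734 genes that rose in dnPI3K hearts were 0.57 in dnPI3K and 0.38 in Ntg hearts. Picking genes by their call in dnPI3K favours large dnPI3K values, and picking them by Ntg favours large Ntg values. The 101 genes that rose in Ntg hearts had medians of 0.85 in dnPI3K and 0.89 in Ntg hearts, and the 417 without array 1185 had 0.52 and 0.64. Across all genes tested, the correlation of the effects was 0.242, and 0.279 without array 1185, a description over genes that share arrays within each genotype.

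**Figure D1:**
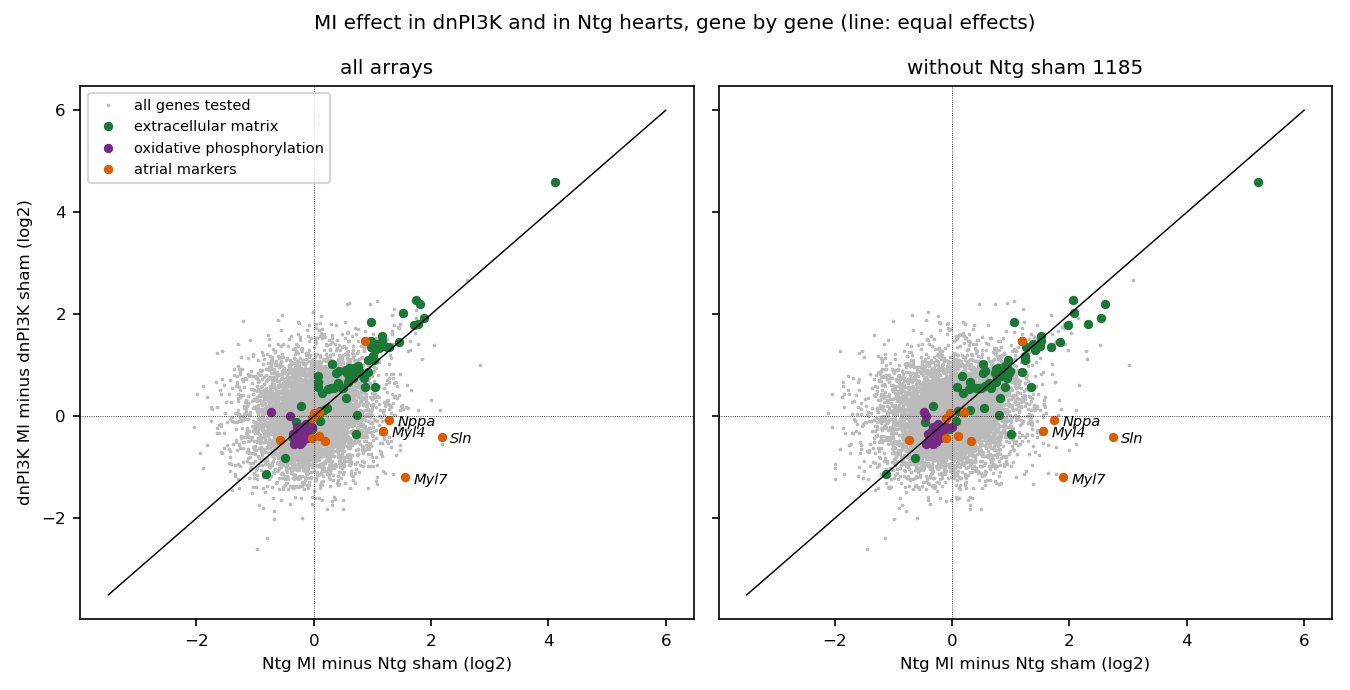
MI effect of each gene in dnPI3K hearts (vertical, log2) against Ntg hearts (horizontal, log2), with all arrays and without Ntg sham 1185. Grey points are the 14763 genes, coloured points are 3 lists, and the line marks equal effects. Matrix genes lie along the line in the upper right, and 4 atrial genes lie far below it.

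The gene that passed without array 1185 was *Nppa*, and 3 more genes that the atria use most had large values beside it: *Myl7* and *Myl4*, the atrial regulatory and essential myosin light chains, and *Sln*, sarcolipin, a small inhibitor of the calcium pump SERCA. All 4 had the lower MI effect in dnPI3K hearts. *Nppa* and *Myl7* are shown with the sequence before their start sites. They are the atrial genes with the smallest p without array 1185, and both promoters were in the RefSeq table (GRCm38.p6). With all arrays *Sln* had a smaller p than *Nppa*, but the RefSeq table held no promoter for *Sln*. Each run below covers the 250 bases upstream of the start, 5′ to 3′ along the gene, at chr4:148000472-148000721 on the plus strand for *Nppa* and chr11:5898783-5899032 on the minus strand for *Myl7*. Capitals mark matches, on either strand, to TGATAA (a form of the GATA factor motif), to AAGTG (a core of the NKX2-5 motif) and to the CArG box bound by SRF, written as its name. No matches overlapped.
Nppa: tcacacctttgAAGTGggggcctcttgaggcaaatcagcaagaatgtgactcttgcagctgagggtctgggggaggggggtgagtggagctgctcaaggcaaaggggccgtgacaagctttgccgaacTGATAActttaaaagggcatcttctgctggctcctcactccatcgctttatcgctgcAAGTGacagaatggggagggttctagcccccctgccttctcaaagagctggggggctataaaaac
Myl7: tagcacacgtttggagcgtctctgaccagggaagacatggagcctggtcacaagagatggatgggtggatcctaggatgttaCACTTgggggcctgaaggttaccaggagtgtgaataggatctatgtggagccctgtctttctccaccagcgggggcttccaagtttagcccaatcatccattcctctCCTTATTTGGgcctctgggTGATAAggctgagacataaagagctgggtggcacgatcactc
Both windows hold 1 TGATAA match, which 7.94% of all 32851 promoter windows of this length hold. *Nppa* holds 2 AAGTG matches and *Myl7* 1, against 40.7% of windows with at least 1. A CArG box was found in the *Myl7* window alone of the pair, and in 1.47% of all windows. These matches describe the letters and say nothing of which factors were bound in these hearts.

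*Nppa* (chromosome 4, 148000722 to 148002074) was bright in 3 of the 4 groups. Its log2 level was 15.80, 15.69, 15.88 and 15.84 on dnPI3K MI arrays and 16.03, 15.91, 15.76 and 15.80 on dnPI3K sham arrays. On Ntg MI arrays it was 15.45, 15.48, 15.57 and 15.51, and on Ntg sham arrays 14.27, 13.54, 13.47 and, on array 1185, 15.61. The dnPI3K sham hearts thus lay with both infarcted groups, and 3 of 4 Ntg sham hearts lay well below all others. The MI effect was -0.07 (SE 0.27, adjusted p 0.918) in dnPI3K hearts and 1.28 (SE 0.27, limma adjusted p 0.0209) in Ntg hearts, where it was 1.74 (limma adjusted p 4.5e-07) without array 1185. The difference of effects was -1.35 (SE 0.39, 95% interval -2.15 to -0.56, adjusted p 0.504). Without array 1185 it was -1.81 (SE 0.24, 95% interval -2.31 to -1.32, limma adjusted p 0.000881). Array 1185 was set apart by its expression values and was the high Ntg sham array for *Nppa*. The smaller p-value and narrower interval without it are thus no independent test. *Nppa* was also higher in dnPI3K than in Ntg sham hearts, by 1.65 (SE 0.27, limma adjusted p 0.000932), or 2.12 without array 1185, which is a part of the same difference. The highest signal of any probe set was 58410 to 84219 on these arrays, and *Nppa* signals in the dnPI3K groups were 52900 to 66782, so *Nppa* was near the top of the arrays' range there. Whether the scanner range limited the dnPI3K MI effect was not tested.

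*Myl7* (chromosome 11, 5896637 to 5898782) had a wider spread within groups. Its levels were 9.81, 10.16, 9.66 and 8.71 on dnPI3K MI arrays and 10.00, 11.79, 10.57 and 10.77 on dnPI3K sham arrays. They were 11.07, 12.15, 11.11 and 12.04 on Ntg MI arrays and 9.82, 8.92, 10.35 and 11.05 on Ntg sham arrays. MI and sham arrays overlapped in dnPI3K hearts, while all 4 Ntg MI arrays lay above all 4 Ntg sham arrays. The effects had opposite signs, -1.20 (SE 0.41, adjusted p 0.0646) in dnPI3K and 1.56 (SE 0.41, adjusted p 0.0689) in Ntg hearts. Without array 1185 both passed in limma, at adjusted p 0.0407 in dnPI3K and, with an effect of 1.89, 0.00571 in Ntg hearts. The difference was -2.75 (SE 0.58, 95% interval -3.94 to -1.57, adjusted p 0.352), and -3.09 (SE 0.56, limma adjusted p 0.0651) without array 1185. Between infarcted hearts, *Myl7* was lower in dnPI3K than in Ntg, with a difference of -2.01 (limma adjusted p 0.00567).

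*Sln* (chromosome 9, 53850251 to 53853849) had levels of 8.95, 10.20, 10.15 and 8.79 in dnPI3K MI and 9.01, 11.19, 9.41 and 10.11 in dnPI3K sham hearts. In Ntg MI hearts they were 10.90, 12.15, 10.62 and 11.47, and in Ntg sham hearts 8.67, 7.69, 9.26 and 10.78. Array 1185 was again the high Ntg sham array, inside the range of the Ntg MI arrays. The difference was -2.59 (SE 0.74, adjusted p 0.504), and -3.15 (SE 0.66, limma adjusted p 0.261) without it. *Myl4* (chromosome 11, 104546017 to 104587215), which was named after its values were seen, had a difference of -1.48 (SE 0.46, adjusted p 0.522), and of -1.84 (SE 0.41, limma adjusted p 0.346) without it. Its Ntg MI levels were 11.65, 12.42, 11.78 and 12.33, against 10.83, 9.76, 10.90 and 11.95 in Ntg sham hearts. A dimmer probe set of *Myl4* gave 0.26, so its probe sets disagreed.

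**Figure D2:**
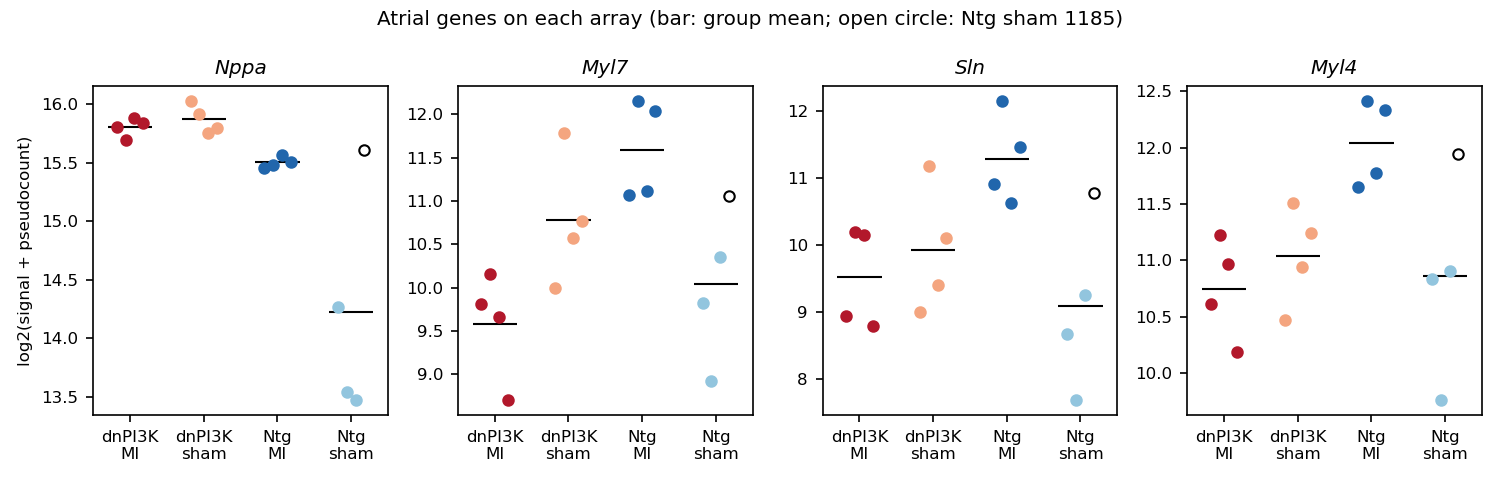
Levels of *Nppa*, *Myl7*, *Sln* and *Myl4*, on the log2 scale, on each of the 16 arrays, with dnPI3K MI, dnPI3K sham, Ntg MI and Ntg sham running left to right. Bars are group means and the open circle is Ntg sham 1185, which is the highest Ntg sham array in all 4 panels.

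The other members of the atrial list varied in sign. Of 12 measured atrial genes, 5 had the lower MI effect in dnPI3K hearts at an unadjusted p below 0.05 and 0 the higher, or 41.7% of the list beside 7.60% of all genes. The fifth of them was *Stard10*, a lipid transfer protein. Without array 1185 there were 4 and 0. The list's median difference was -0.43 with all arrays and -0.40 without array 1185, beside 0.01 and 0.00 over all genes tested. The remaining 8 were *Stard10* (-0.40), *Tbx5* (-0.47), *Fgf12* (-0.68), *Pam* (-0.01), *Kcna5* (0.06), *Kcnj3* (0.12), *Dkk3* (0.60) and *Bmp10*, whose difference was within 0.01 of zero. The labels name the heart as source and do not say how much atrium was taken. The summed signal of the list without *Nppa* was 8334 to 11378 in dnPI3K MI, 8842 to 14694 in dnPI3K sham, 12555 to 20430 in Ntg MI and 6366 to 13926 in Ntg sham hearts. The top of the Ntg sham range was array 1185, and the other 3 reached 9618. *Myl7*, *Sln* and *Myl4* are themselves in that sum, so it is no separate measure of how much atrium was taken, whose part in the result was not tested.

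The arrays were also split at number 1000, a limit chosen for this comparison, and both parts hold arrays of every group. The labels do not say what the numbers stand for. On the arrays numbered under 1000 alone, which hold 1 Ntg MI array, the differences were -1.68 (SE 0.28) for *Nppa* and -3.20 (SE 0.75) for *Myl7*. On those over 1000, which hold array 1185 and 1 dnPI3K MI array, they were -1.07 (SE 0.71) and -1.57 (SE 0.50). *Sln* had -3.52 and -0.95 in these subsets, so its value moved most between them. No gene had an adjusted p below 0.05 in either subset in limma (smallest 0.107 and 0.082).

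**Figure D3:**
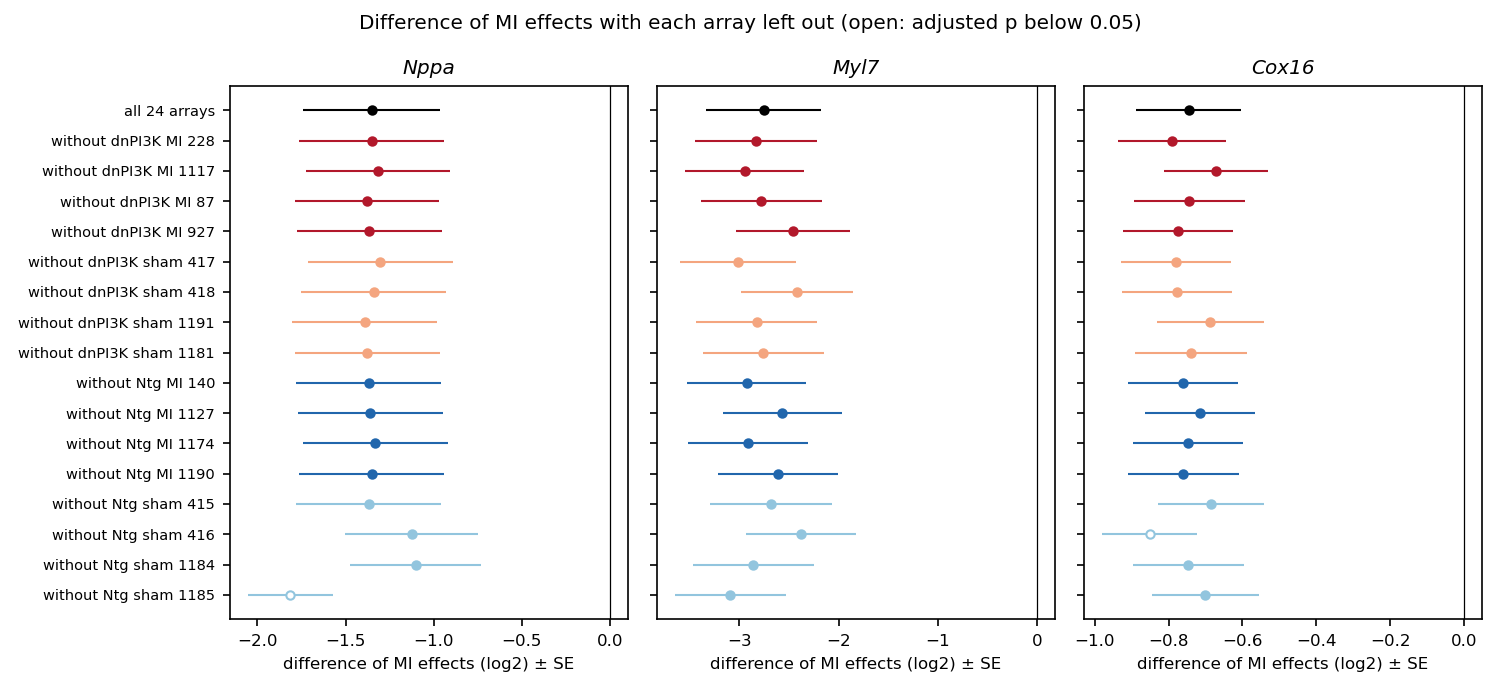
Difference of MI effects, dnPI3K minus Ntg, with SE, for *Nppa*, *Myl7* and *Cox16*, with all 24 arrays and with each of the 16 arrays left out in turn. Open points have an adjusted p below 0.05. *Nppa* passes only without Ntg sham 1185 and *Cox16* only without Ntg sham 416.

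Of the 12 genes of smallest p with all arrays, only *Myl7* was in the atrial list, and none was in the fetal and wall-stress list. *Cox16* (chromosome 12, 81358852 to 81485137), an assembly factor of cytochrome c oxidase, had levels of 10.71, 10.36, 10.58 and 10.67 on dnPI3K MI arrays and 11.16, 11.17, 11.44 and 11.28 on dnPI3K sham arrays. On Ntg MI arrays they were 10.86, 10.99, 10.90 and 10.86, and on Ntg sham arrays 10.66, 11.16, 10.84 and 10.70. The dnPI3K groups did not overlap, with MI lower, while Ntg MI lay inside the Ntg sham range. The effect was -0.68 (SE 0.10, limma adjusted p 0.000136) in dnPI3K and 0.06 (SE 0.10, adjusted p 0.882) in Ntg hearts. The difference was -0.75 (SE 0.14, 95% interval -1.04 to -0.45, adjusted p 0.243), and -0.70 without array 1185. A second, dim probe set gave 0.01. It passed in limma when Ntg sham 416 was left out, at -0.85 (adjusted p 0.0101). On the arrays numbered under and over 1000, *Cox16* had -0.46 (SE 0.24) and -1.15 (SE 0.17).

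Several of the next genes had the same shape, a fall after MI in dnPI3K hearts beside Ntg effects of -0.14 to 0.07. For *Nsmce1* the Ntg effect was -0.14 with all arrays and -0.33 (limma adjusted p 0.0476) without array 1185. *Psmb7*, a catalytic subunit of the proteasome, had levels of 13.69, 13.44, 13.34 and 13.62 in dnPI3K MI and 14.24, 14.05, 14.04 and 14.08 in dnPI3K sham hearts. They were 13.90, 14.10, 14.16 and 14.05 in Ntg MI and 14.26, 14.27, 14.07 and 14.06 in Ntg sham hearts. All 4 dnPI3K MI arrays lay below the other 12, and the difference was -0.47 (SE 0.11, adjusted p 0.352), and -0.43 without array 1185. *Coq5*, an enzyme of coenzyme Q synthesis, also had its 4 dnPI3K MI arrays (11.30, 11.19, 11.22 and 11.17) below the other 12, which began at 11.36. Its difference was -0.43 (SE 0.10, adjusted p 0.352), and -0.46 without array 1185, and a second probe set gave -0.38. *Pdcd2*, which takes part in ribosome assembly, had -0.81 (SE 0.18, adjusted p 0.352), and -0.75 without array 1185. Its dnPI3K MI levels were 9.24, 9.35, 9.55 and 9.27, against 10.21, 10.20, 10.07 and 9.94 in dnPI3K sham hearts. *Nsmce1*, of the SMC5/6 complex, had -0.73 with all arrays and -0.55 without array 1185, where it was the low Ntg sham value (10.75, against 11.45 to 11.53). *Chrac1*, a chromatin remodelling subunit, had -0.73 on its brighter probe set and -0.16 on the other, so it is uncertain. Without array 1185 the brighter one gave -0.70.

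Fewer genes stood out in the other direction. *Htra4* (chromosome 8, 25024928 to 25038962), a secreted serine protease, had levels of 9.97, 9.77, 10.10 and 9.82 in dnPI3K MI and 8.47, 9.07, 8.91 and 8.43 in dnPI3K sham hearts. They were 8.98, 8.78, 8.56 and 8.99 in Ntg MI and 8.78, 8.35, 8.61 and 9.19 in Ntg sham hearts. The 4 infarcted dnPI3K hearts lay above the other 12, and *Htra4* rose after MI in dnPI3K hearts by 1.20 (SE 0.17, limma adjusted p 0.000136). The difference was 1.10 (SE 0.25, 95% interval 0.59 to 1.60, adjusted p 0.352), and 0.94 without array 1185. *Mfap3*, a microfibril-associated protein, had a difference of 0.58 (SE 0.13, adjusted p 0.352) made of opposite effects, 0.33 in dnPI3K and -0.25 in Ntg hearts. It was also 0.58 without array 1185, and its other probe sets gave 0.23 and 0.38. *A930033H14Rik* (1.41), *4930448K20Rik* (2.47) and *C2cd4b* (-3.01) complete the 12 genes of smallest p with *Myl7*, and the last pair were dim, with levels under 8 on all 16 arrays. Without array 1185 these 3 had 1.48, 2.45 and -2.91. With all arrays, another probe set of *A930033H14Rik* gave 0.30, and others of *4930448K20Rik* gave -0.25 and 0.75.

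**Figure D4:**
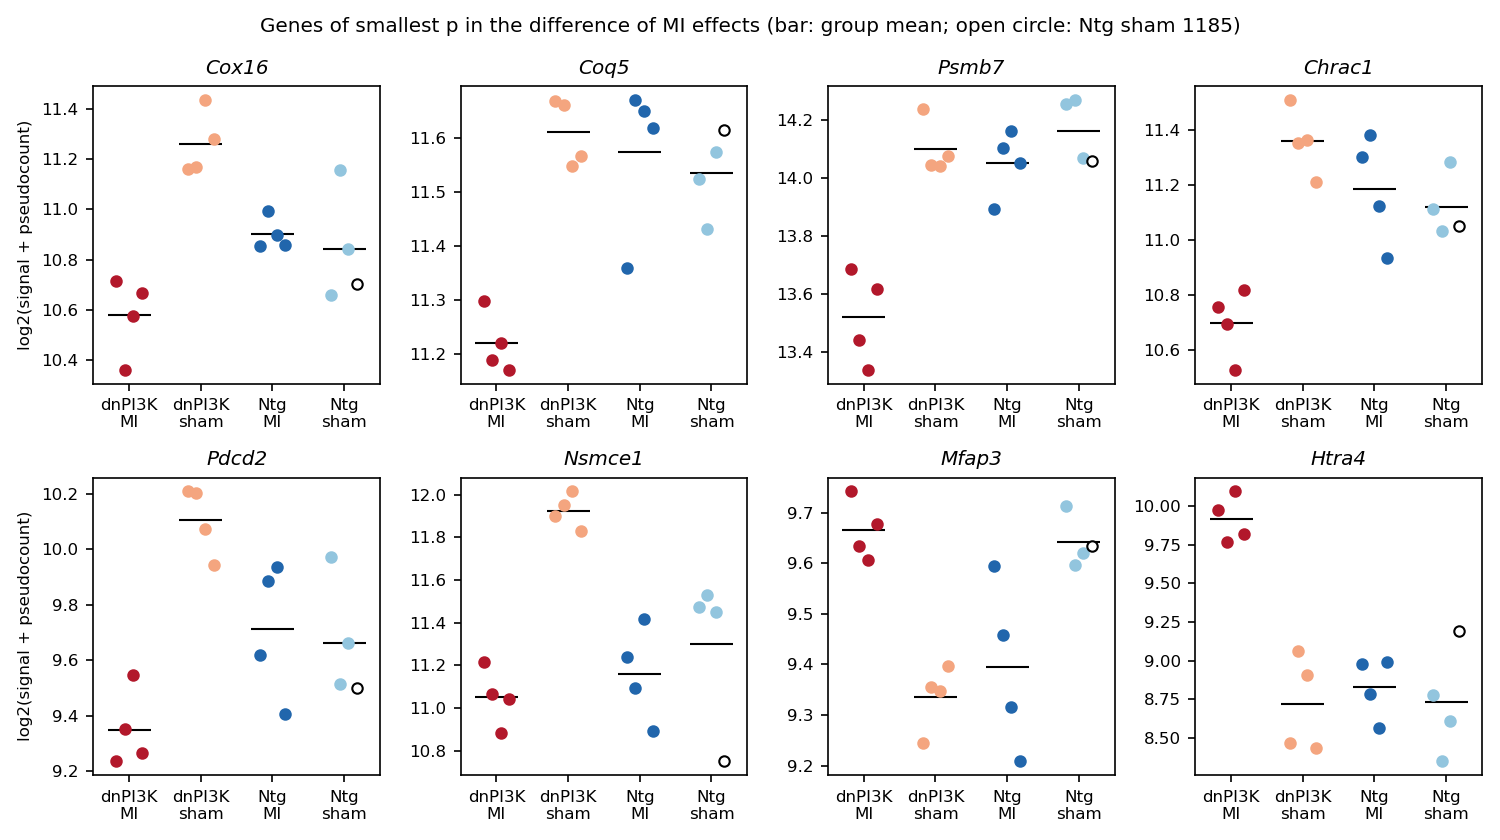
Levels, on the log2 scale, of 8 genes among the 12 of smallest p in the difference of MI effects, on each array, with dnPI3K MI, dnPI3K sham, Ntg MI and Ntg sham running left to right. Bars are group means and the open circle is Ntg sham 1185. In *Cox16*, *Coq5*, *Psmb7*, *Chrac1*, *Pdcd2* and *Nsmce1* the dnPI3K MI group has the lowest mean.

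No scar or wall-stress gene of the lists was called in the difference except *Nppa* without array 1185. In the extracellular matrix list 44 of 68 genes rose after MI in dnPI3K hearts and 1 fell, and 27 rose in Ntg hearts. Without array 1185, 47 rose in dnPI3K and 44 in Ntg hearts. Of all genes tested, 4.23% rose in dnPI3K and 0.684% in Ntg hearts, or 4.97% and 2.82% without array 1185. The list's median difference was 0.19 with all arrays and -0.05 without it, so its sign rests on that array. *Postn*, periostin, a matrix protein of activated fibroblasts, had levels of 13.60, 13.87, 13.47 and 14.03 in dnPI3K MI and 11.52, 12.05, 12.29 and 11.90 in dnPI3K sham hearts. They were 13.90, 13.71, 13.61 and 13.32 in Ntg MI and 11.04, 11.70, 11.21 and 13.51 in Ntg sham hearts, with array 1185 at the level of the infarcted hearts. Its effects were 1.80 (SE 0.31) in dnPI3K and 1.77 (SE 0.31) in Ntg hearts, and the difference was 0.03 (SE 0.43, adjusted p 0.992) with all arrays and -0.52 (SE 0.23, adjusted p 0.704) without array 1185. *Col1a1*, the main chain of type I collagen, had a difference of 0.11 (SE 0.49, 95% interval -0.89 to 1.11, adjusted p 0.975), and -0.33 without array 1185, an interval that also holds large differences of either sign. *Lox*, which crosslinks collagen, had 0.88 (SE 0.35, adjusted p 0.620), and 0.80 without array 1185, on levels of 9.49, 9.07, 9.40 and 9.69 in dnPI3K MI, against 8.60, 8.89, 8.59 and 8.13 in Ntg MI hearts. *Fbln5*, a fibulin of elastic fibres, had 0.45 (SE 0.18, adjusted p 0.612), and *Fzd2*, a Wnt receptor, 1.06 (SE 0.31, adjusted p 0.504). Without array 1185 they had 0.31 and 0.94.

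Among the load-responsive genes of muscle, *Nppb*, the precursor of B-type natriuretic peptide, did not share the size of the *Nppa* value. Its difference was -0.21 (SE 0.16, adjusted p 0.822), and -0.27 without array 1185. *Acta1*, skeletal alpha-actin, rose after MI in dnPI3K hearts by 0.96 (SE 0.17, limma adjusted p 0.000672). In Ntg hearts its effect was 0.50 (SE 0.17, adjusted p 0.194), and 0.79 (limma adjusted p 4.17e-05) without array 1185, which was at 15.32 against 14.15 to 14.17 on the other Ntg sham arrays. The *Acta1* difference accordingly was 0.46 with that array and 0.17 without it. *Synpo2l*, a Z-disc protein, had levels of 13.87, 14.23, 13.77 and 13.75 in dnPI3K MI and 13.03, 12.66, 12.53 and 12.86 in dnPI3K sham hearts. Its difference was 0.69 (SE 0.20, adjusted p 0.504), and 0.52 without array 1185. *Myh7*, the slow myosin heavy chain, had 0.22 with all arrays and -0.16 without array 1185, both smaller than their SE (0.48 and 0.42). The 16 measured genes of the fetal and wall-stress list had a median difference of 0.17, or 0.09 without array 1185. After MI 6 of them rose in dnPI3K hearts and 2 in Ntg hearts, beside 4.23% and 0.684% of all genes. Without array 1185 it was 6 and 7, beside 4.97% and 2.82%.

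Genes of energy supply fell after MI in dnPI3K hearts, while few of them were called in Ntg hearts unless array 1185 was left out. Among all genes tested, 5.19% were called lower after MI in dnPI3K hearts and 0.0948% in Ntg hearts, or 5.78% and 1.72% without array 1185. Those shares stand beside each list here. Of 72 oxidative phosphorylation genes, 59 fell in dnPI3K hearts and 0 in Ntg hearts, or 61 and 31 without array 1185. Yet none passed in the difference, whose median over the list was -0.13, or -0.07 without array 1185. The difference was above 0 in 7 of the 72, or 16 without array 1185, beside 7521 and 7381 of all 14763 genes tested. Such signs were not particular to energy genes, as 4 of 36 ribosomal protein genes were above 0, or 11 without array 1185. The 99th percentile of signal was 16141 to 17234 on dnPI3K MI and 18260 to 20892 on dnPI3K sham arrays. It was 17164 to 17884 on Ntg MI and 17274.5 to 20301 on Ntg sham arrays. Its part in these signs was not tested. *Ndufa6*, a complex I subunit, had effects of -0.51 in dnPI3K and -0.19 in Ntg hearts, and a difference of -0.31 (SE 0.11, adjusted p 0.593), or -0.24 without array 1185. Of 28 genes of fatty acid uptake and oxidation, 20 fell in dnPI3K hearts and 2 in Ntg hearts, or 20 and 15 without array 1185. Their median difference was -0.14, or -0.08 without it. *Eci1*, an isomerase of fat oxidation, had levels of 13.20, 13.06, 12.91 and 12.72 in dnPI3K MI and 13.96, 13.71, 13.65 and 14.08 in dnPI3K sham hearts. They were 13.47, 13.67, 13.76 and 13.58 in Ntg MI and 14.37, 14.29, 13.99 and 13.56 in Ntg sham hearts. The difference was -0.45 (SE 0.18, adjusted p 0.633), and -0.28 without array 1185, whose 13.56 was the lowest Ntg sham value. The citric acid cycle list had 16 of 20 genes lower in dnPI3K hearts and 0 in Ntg hearts, or 16 and 10 without array 1185, with a median difference of -0.10, or -0.05. *Slc2a4*, the insulin-responsive glucose transporter, had -0.33 (SE 0.14), and -0.23 without array 1185.

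**Figure D5:**
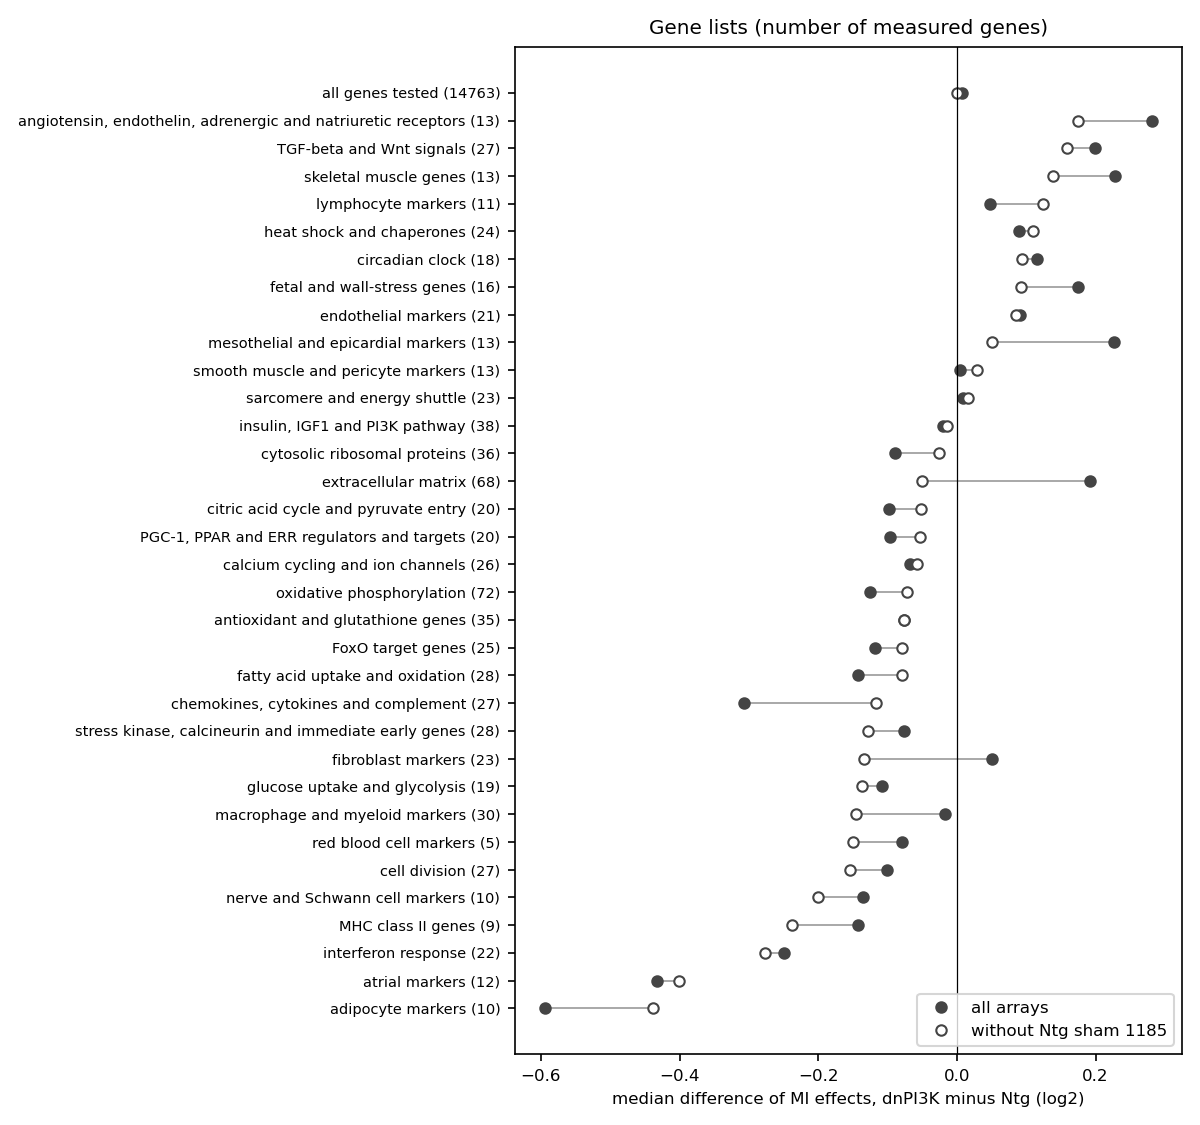
Median difference of MI effects (log2, dnPI3K minus Ntg) over the measured genes of each of 33 lists, with all arrays (filled) and without Ntg sham 1185 (open), beside all 14763 genes. The matrix and fibroblast lists lie on opposite sides of zero with and without that array, and the atrial and adipocyte lists are lowest in both.

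In the insulin, IGF1 and PI3K list the median difference was -0.02, or -0.01 without array 1185, and 4 of 38 genes had an unadjusted p below 0.05, 3 higher and 1 lower, or 10.5% beside 7.60% of all genes. *Irs1*, which couples the insulin receptor to PI3K, had levels of 12.14, 12.32, 12.06 and 11.65 in dnPI3K MI and 12.16, 12.05, 12.24 and 12.12 in dnPI3K sham hearts. They were 11.34, 11.48, 11.68 and 11.37 in Ntg MI and 11.25, 11.17, 11.14 and 10.74 in Ntg sham hearts. All dnPI3K levels except 11.65 on array 927 lay above every Ntg level, and *Irs1* was higher in dnPI3K than in Ntg sham hearts by 1.07 (SE 0.12, limma adjusted p 5.66e-06), or 0.96 without array 1185. Its difference of MI effects was -0.49 (SE 0.16, adjusted p 0.560), and -0.38 without array 1185. *Pik3cd*, the catalytic subunit of leukocyte PI3K, had 1.02 (SE 0.35, adjusted p 0.571), and 1.28 without array 1185. It was at 11.35 on Ntg sham 416 and at most 10.15 on the other 15 arrays, and its dimmer probe sets gave 0.10 and 0.07. *Pik3ca*, the catalytic subunit that receptor signals use in cardiac muscle, had -0.34 (SE 0.21, 95% interval -0.77 to 0.09, adjusted p 0.749), and *Pik3r1*, a regulatory subunit, had -0.23 (SE 0.23). Without array 1185 they had -0.41 and -0.05. Of 25 FoxO target genes, which Akt restrains through FoxO factors, 4 had the lower effect in dnPI3K hearts at an unadjusted p below 0.05 and 0 the higher, or 16% beside 7.60% of all genes. Without array 1185 it was 2 and 0 of the 25, beside 6.81% of all genes. With all arrays the share was larger in other lists, such as 18.75% of fetal and wall-stress, 20% of antioxidant and 22.2% of MHC class II genes. *Ccng2* (-0.42, SE 0.14) and *Txnip* (-0.62, SE 0.25) had the smallest p of the FoxO targets, with -0.34 and -0.71 without array 1185. A second probe set of *Ccng2* gave 0.24 (SE 0.20), so its probe sets disagreed.

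Genes of other cell types gave no call in the difference. Macrophage and myeloid genes had a median of -0.02, or -0.15 without array 1185, and *Retnla*, made by alternatively activated macrophages in mice, gave -1.80 (SE 0.47, adjusted p 0.477). Its levels were 8.76, 8.79, 7.58 and 7.66 in dnPI3K MI and 10.43, 10.14, 10.09 and 10.11 in dnPI3K sham hearts. They were 9.97, 9.56, 9.76 and 9.16 in Ntg MI and 10.13, 10.22, 10.27 and 8.61 in Ntg sham hearts. The difference was -1.40 without array 1185, the lowest Ntg sham array. The interferon list had -0.25, or -0.28, and the chemokine list -0.31, or -0.12, where *Cxcl1*, a neutrophil attractant, gave -0.93 (SE 0.29, adjusted p 0.522), and -0.95 without array 1185. In the interferon list the summed signal was 29268 on Ntg MI 140 and 14201 to 17950 on the other 3 Ntg MI arrays. In the MHC class II list it was 23026 on Ntg MI 140 and 3998 to 5229 on the other 3. Without array 140 the median difference was -0.031 for the interferon list, -0.014 for the MHC class II list, 0.19 for the macrophage list and -0.24 for the chemokine list, so most of the interferon value and the sign of the macrophage value rest on that array.

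Adipocyte markers had the lowest list median, -0.59, or -0.44 without array 1185, and it was -0.30 without dnPI3K MI 87 and -0.84 without dnPI3K MI 228. Of the 10 measured, 2 had the lower effect in dnPI3K hearts at an unadjusted p below 0.05 and 0 the higher, beside 582 lower and 540 higher of all 14763 genes. *Adipoq*, adiponectin, had levels of 9.67, 8.34, 7.26 and 8.24 in dnPI3K MI and 10.13, 9.44, 9.63 and 9.47 in dnPI3K sham hearts. They were 9.21, 9.44, 8.72 and 9.37 in Ntg MI and 9.50, 9.41, 9.40 and 9.11 in Ntg sham hearts. The dnPI3K MI arrays varied most, and the difference was -1.12 (SE 0.45, adjusted p 0.629), and -1.04 without array 1185. *Scd1*, a desaturase of fat synthesis, gave -1.03 (SE 0.39, adjusted p 0.608), and -0.98 without it. A dimmer probe set of *Scd1* gave -0.10. Summed signal of the adipocyte list was 83708 to 94491 in dnPI3K MI, 99397 to 122153 in dnPI3K sham, 88406 to 93315 in Ntg MI and 94832 to 118943 in Ntg sham hearts. The sum was thus lower after MI in both genotypes. *Adipoq* (signals of 142 to 1112) and *Scd1* (1358 to 5593) were small parts of it. *Fabp4* is also in the endothelial list, so the sum is no separate measure of fat cells.

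Endothelial markers had a median of 0.09, or 0.08 without array 1185, with 17 of 21 members above 0 both times, beside 50.9% of all genes with all arrays. The median was 0.035 without Ntg MI 1190 and 0.21 without Ntg MI 1127. *Cdh5*, vascular endothelial cadherin, gave 0.47 (SE 0.20, adjusted p 0.636) and *Tie1*, a receptor of vessel lining cells, 0.42 (SE 0.19, adjusted p 0.642), with 0.55 and 0.48 without array 1185. *Ednrb*, the endothelin B receptor, was a member of the list of hormone and receptor genes, whose median was 0.28, or 0.18 without array 1185. Its levels were 10.83, 11.01, 10.93 and 11.02 in dnPI3K MI and 9.92, 10.16, 10.00 and 10.04 in dnPI3K sham hearts. They were 10.55, 10.94, 10.44 and 10.43 in Ntg MI and 10.21, 9.91, 10.19 and 10.55 in Ntg sham hearts. The dnPI3K groups did not overlap, and *Ednrb* rose there by 0.91 (SE 0.11, limma adjusted p 4.26e-05). The difference was 0.54 (SE 0.16, adjusted p 0.504), and 0.43 without array 1185. A second probe set gave 0.65 and another, dimmer one -0.32.

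The remaining lists had no call in the difference, and their medians are given with all arrays and then without array 1185. In muscle, sarcomere genes had 0.01 and 0.02, calcium cycling and ion channel genes -0.07 and -0.06, and skeletal muscle genes 0.23 and 0.14. Regulators of mitochondrial genes (PGC-1, PPAR and ERR) had -0.10 and -0.05, glycolysis genes -0.11 and -0.14, and ribosomal protein genes -0.09 and -0.03. FoxO targets had -0.12 and -0.08, TGF-beta and Wnt genes 0.20 and 0.16, and stress kinase and early response genes -0.08 and -0.13. Heat shock genes had 0.09 and 0.11, antioxidant genes -0.08 and -0.08, clock genes 0.12 and 0.09, and cell division genes -0.10 and -0.15. Among cell type markers, fibroblast genes had 0.05 and -0.13, smooth muscle genes 0.00 and 0.03, and mesothelial genes 0.23 and 0.05. Lymphocyte genes had 0.05 and 0.12, MHC class II genes -0.14 and -0.24 (-0.61 without dnPI3K MI 228 and 0.092 without Ntg sham 415), nerve genes -0.14 and -0.20, and red blood cell genes -0.08 and -0.15. *Gstk1*, a glutathione transferase of mitochondria and peroxisomes, had the smallest p of the antioxidant list. Its levels were 11.35, 11.12, 11.55 and 11.14 in dnPI3K MI and 12.35, 12.22, 12.26 and 12.42 in dnPI3K sham hearts, and it fell there by 1.02 on the log2 scale (limma adjusted p 9.54e-05). They were 11.52, 11.82, 11.84 and 11.77 in Ntg MI and 12.33, 12.47, 12.23 and 11.47 in Ntg sham hearts. The difference was -0.63 (SE 0.20, adjusted p 0.522), and -0.41 without array 1185, the lowest Ntg sham value. *Myl1*, a skeletal myosin light chain, was lower in dnPI3K than in Ntg sham hearts, with a difference of -2.12 (limma adjusted p 8.05e-07), or -1.81 without array 1185, and its difference of MI effects was 0.71 (SE 0.28), or 0.40 without array 1185.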

How the data were processed

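Hearts of FVB/N mice were measured on Affymetrix arrays, 4 per group. The authors deposited signal intensity per probe set, made with MAS5 per the submitters' processing notes, whose version is not stated there. The trimmed mean signal was 500.003 to 500.004 on all arrays, so no further scaling was applied. The number of arrays limits the precision. Of 45101 probe sets, 64 controls were dropped and 33061 had a signal above the 40th percentile of their own array on at least 4 arrays. The brightest probe set naming 1 gene stood for each gene, which left 14763 genes. The 5934 kept probe sets without 1 gene were fitted apart, with 0 calls in the difference (smallest adjusted p 0.339). Names came from the platform annotation, with positions from RefSeq (GRCm38.p6). Signals became log2(signal + 11.2), which compresses dim genes.

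limma 3.58.1 (R 4.3.3) fitted a mean for each of 6 groups on 24 arrays, with trended empirical Bayes and Benjamini-Hochberg adjustment over all genes. Every adjusted p is from that fit, or from its repeat on the arrays stated. The fit was also run on simulated data with independent noise and no shifts of whole arrays, and no conclusion is drawn from that run. Figures used matplotlib 3.10.9 (Python 3.11.15). Named genes were 16 chosen heart genes, the 12 of smallest p, the 2 of smallest p in each of 33 lists, and any gene called without array 1185. Members and lists were chosen with earlier results of these data known. Alternatives were each array left out, scaling, pseudocount, filter, probe set choice, variance model, array weights and array number.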

Additional observations from a re-analysis of the deposited data

Results flagged for a closer look

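Among 368 groups of 4 arrays (92 named genes), 22 held 1 array whose gap to the nearest other exceeded Dixon's limit, and chance gives about 1 in 20. Array 1185 accounted for 5 of them in Ntg sham: *Acta1* at 15.32, *Nsmce1* at 10.75, *Hsd17b10* at 12.66, *Slc2a4* at 12.45 and *Retnla* at 8.61. Array 416, also Ntg sham, stood apart for *Pik3ca* at 10.01 and *Jund* at 11.63. In Ntg MI, array 140 stood apart for *Acadm* at 14.81, *Coq5* at 11.36, *4930448K20Rik* at 5.18, *Ndufs3* at 13.79, *Hspb6* at 15.00 and *Ccl8* at 11.02. Other Ntg MI values were *Fbln5* at 10.86 on array 1174, *Cd79a* at 5.55 on 1190 and *Krt19* at 4.35 on 1127. In dnPI3K MI, array 927 stood apart for *Timp1* at 10.03 and *Mypn* at 10.77, and array 228 for *Per3* at 9.53. In dnPI3K sham, array 417 stood apart for *Retnla* at 10.43 and *Rpl6* at 14.56, and array 1191 for *Mybpc2* at 8.70. All values are log2 levels.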

How the results depend on the processing

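The count of genes called in the difference was 0 under 26 of 30 alternatives in limma. With 1 array left out it was 0 to 1: *Nppa* without Ntg sham 1185 and *Cox16* without Ntg sham 416. Without sham arrays 415 to 418 it was 2, *Cox16* and *Trav9d-3*, the second named after its value was seen. Without Ntg sham 1185 and dnPI3K MI 228 together, chosen after seeing the data as was the subset of arrays under 1000, it was 1, *Nppa*. Ntg MI calls ranged more widely, at 25 to 671 with 1 array left out, and dnPI3K MI calls were 842 to 1588. Against 1390 and 115 with all arrays, dnPI3K MI and Ntg MI calls were 63 and 1 on arrays over 1000, 364 and 132 on arrays under 1000, and 665 and 9 without arrays 415 to 418. Ntg MI calls were also 40 in the fit on the 16 arrays alone, 63 with probe sets averaged, 30 without the intensity trend, 290 with array weights and 739 without arrays 1185 and 228. Of 2664 alternative values of 92 named genes, 2628 kept their direction. For those that turned, the cause was not tested. With arrays left out in turn, ranges were -0.12 to 0.024 for *Myh6*, -0.17 to 0.68 for *Myh7*, -0.12 to 0.0088 for *Atp2a2*, -0.33 to 0.55 for *Col1a1*, -0.093 to 0.44 for *Col3a1*, -0.52 to 0.31 for *Postn*, -0.049 to 0.54 for *Timp1* and -0.11 to 0.045 for *Acadm*. Without arrays 1185 and 228, *Myh7* was -0.11, *Col1a1* -0.41, *Col3a1* -0.013, *Postn* -0.47 and *Acadm* 0.077. Array weights gave *Col1a1* -0.14, *Postn* -0.19 and *Acadm* 0.011, and quantile scaling gave *Acadm* 0.047. *Col1a1* was -0.44 without arrays 415 to 418 and -0.25 on arrays over 1000, where *Mbp* was 0.13. Averaging probe sets gave *Pik3r1* 0.028, *Tfam* 0.0062, *Mylk* 0.061, *Per3* -0.090 and *Arntl* -0.37. Medians of 9 of 33 lists changed sign under an alternative. No paired analysis was possible because the labels give the groups no shared replicate numbers.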
